A study of Eurytemora affinis with 18 samples.

Results

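Adult females of *Eurytemora affinis*, an estuarine copepod, that had lived for 72 h in water with a nominal 50 µg/L of tebufenozide (TEB) were compared with solvent-control females. The members are the libraries whose labels give these groups and this sex, 3 per group, and so 6 of the 18 libraries of the series. The copepods were caught wild in an estuary and kept in the laboratory before exposure, each library was made from whole bodies of 30 females without eggs, and all vessels, controls included, held the same share of acetone. The concentration measured in that water was below the nominal value. It is not stated whether each pool came from its own vessel, so p-values measure the spread between pools.

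TEB is an insecticide that binds the ecdysone receptor in place of the moulting hormone 20-hydroxyecdysone. In insects the receptor and its partner switch on early genes such as broad-complex and Eip74EF, which code for transcription factors, and these in turn act on late genes for cuticle proteins, chitin enzymes and peptidases. Ecdysteroids also act in egg formation, and in crustaceans methyl farnesoate takes the place of juvenile hormone. Adult copepods no longer moult.

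The control libraries went on a High Output flow cell with reads of 75 bp, and the exposed libraries on a Mid Output flow cell with reads of 150 bp. Dose, flow cell and read length change together in this comparison and cannot be told apart by it. The third female group of the series, at a nominal 0.5 µg/L, was read on both: its replicates 1 and 2 on the High Output and its replicate 3 on the Mid Output flow cell. Those 3 libraries took no part in the test and are used as a side check. Most values below are therefore given with the level in replicate 3 at 0.5 µg/L, which shares the flow cell of the exposed females but not their dose.

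Controls held 13325753 to 17114866 counts and exposed libraries 7983412 to 9829482. Replicates of a group differed by more than counting noise (chi-square per degree of freedom 7.56 to 36.3), so no library was a copy of another. In CPM, the count of a gene over the library total as scaled by the TMM factor over all 18 libraries, brought to a common total, vitellogenin-like LOC111704362 (yolk protein precursor) reached 44.3 to 133 in these 6 libraries and 0 to 41.3 in the 9 male libraries, and vasa-like LOC111702462 (germline RNA helicase) 173 to 290 against 9 to 136. Both markers were on the side of the female label in all 6 libraries. The sum over genes named for sperm or axoneme, taken as markers of male material, went the other way. It was 2360 to 2880 CPM in these 6 libraries and 51.7 to 998 in the 9 male libraries, so it did not mark male material here. Most of the sum in these 6 libraries came from 1 gene, axoneme-associated protein mst101(2)-like LOC111695653 (2300 to 3050 CPM when scaled over the 9 female libraries). The other genes were not compared singly with the males. Levels in the rest of the text are CPM after TMM scaling over the 9 female libraries. CPM is not divided by gene length, so levels of different genes are not compared. In whole bodies, less RNA of a gene per cell and fewer cells of the type that makes it cannot be told apart.

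Of 14520 genes tested, 33 passed an adjusted p of 0.05 and a fold change of 2 in edgeR's quasi-likelihood test. They were 0.227% of the genes tested. Lower genes numbered 30 (0.207%) and higher genes 3 (0.0207%). The fall of the 30 lower genes ran from 2.03-fold to 18.3-fold, with a median of 3.67-fold. Among the 14 with a descriptive name were a mucin, 2 structural proteins rich in repeats, 2 muscle myosin heavy chains, a tubulin, hsp83, a metalloproteinase and a cellulase on the lower side, and hsp70 and a subunit of the proton pump on the higher side. The other 19 are uncharacterised or without a name. Of the 33 genes, 32 stand on the study's own list for females at 50 µg/L, which was made from the same libraries and is no independent evidence.

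The asymmetry between lower and higher was also present beyond the called genes. In 463 genes (3.19% of those tested) all 3 exposed libraries were below all controls with a fitted fall of at least 2-fold, and in 51 genes (0.351%) they were above with a rise of that size. Most of the lower ones, 380, had a control mean of 1 to 10 CPM, where 28 were higher. Under 1 CPM there were 7 lower and 21 higher. The filter for low counts asks for enough counts in at least 3 libraries. Genes this low in the controls thus passed it mainly through their exposed libraries, and nothing is read from that reversal. The levels were grouped by the control mean, which is itself part of the fold change, so the counts by level are a description only. Over all genes tested the log2 fold change was negative in 7446 and positive in 7074. The exposed libraries were also the shallower ones. With all 6 libraries thinned to the smallest total, a setting chosen after the data had been seen, 34 genes were called, 32 of them lower, and 31 were shared with the 33. That setting was read for the calls only. Whether depth had a part in the 463 and 51 genes was not tested.

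The number of calls changed with the libraries and the test used. When the 0.5 µg/L libraries were fitted along with the others, so that 9 libraries set the spread, 1 gene was called, LOC111701273. On the 6 libraries DESeq2 called 132 genes, 117 of them lower (0.838% of those it tested) and 15 higher (0.107%), of which 32 were among the 33, and edgeR's likelihood ratio test called 146, 135 of them lower (0.93%) and 11 higher (0.0758%), which included all 33. Leaving out control replicate 2 raised the count to 119, with 32 of the 33 kept. Leaving out control replicate 3 lowered it to 7, and leaving out exposed replicate 1, 2 or 3 lowered it to 4, 10 or 8. The 2 uncharacterised genes LOC111701416 and LOC111700229 were called whichever library was left out. In the other 31, at least 1 of these omissions ended the call. The bar chart of calls under each setting shows these counts side by side.

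**Figure D1:**
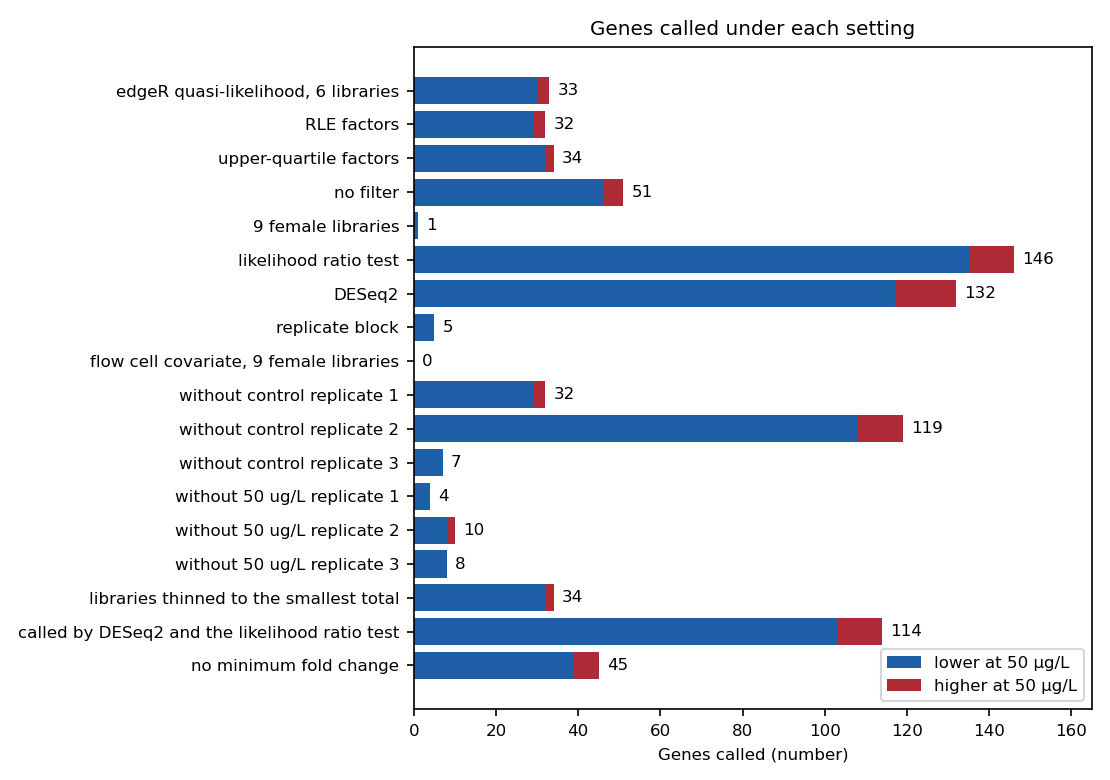
Number of genes called (adjusted p of at most 0.05 and at least 2-fold; x axis) under each setting (y axis), split into lower and higher at 50 µg/L. The count is 33 in the fit of 6 libraries, 1 when all 9 female libraries set the spread and 132 with DESeq2.

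The 33 called genes were next read in the 3 female libraries at 0.5 µg/L. In all 33, replicate 3 of that group lay beyond both of its sister replicates, and it lay on the side to which the exposed females had moved. Over all genes tested, replicate 3 was below both sisters in 36.4% and above both in 36.9%. In 31 of the 33 it was nearer to the mean of the exposed females than to that of the controls, on the log2 scale, and in 31 the mean of replicates 1 and 2 was nearer to the controls. Over all 14520 genes tested these numbers were 9052 and 8885. The median log2 fold change of the called genes between 50 µg/L and control was -1.79. The median log2 difference between replicate 3 and replicates 1 and 2 was -1.78, although these libraries had nominally the same dose. Across the 33 genes both differences had a Pearson r of 0.86 (Spearman rho 0.76), and across all 14520 tested genes 0.37 (rho 0.36). The value over the 33 mixes both directions. It was 0.69 (rho 0.68) within the 30 lower and 0.38 (rho 0.5) within the 3 higher genes. These are descriptions across genes, and both differences contrast the same 2 flow cells.

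**Figure D2:**
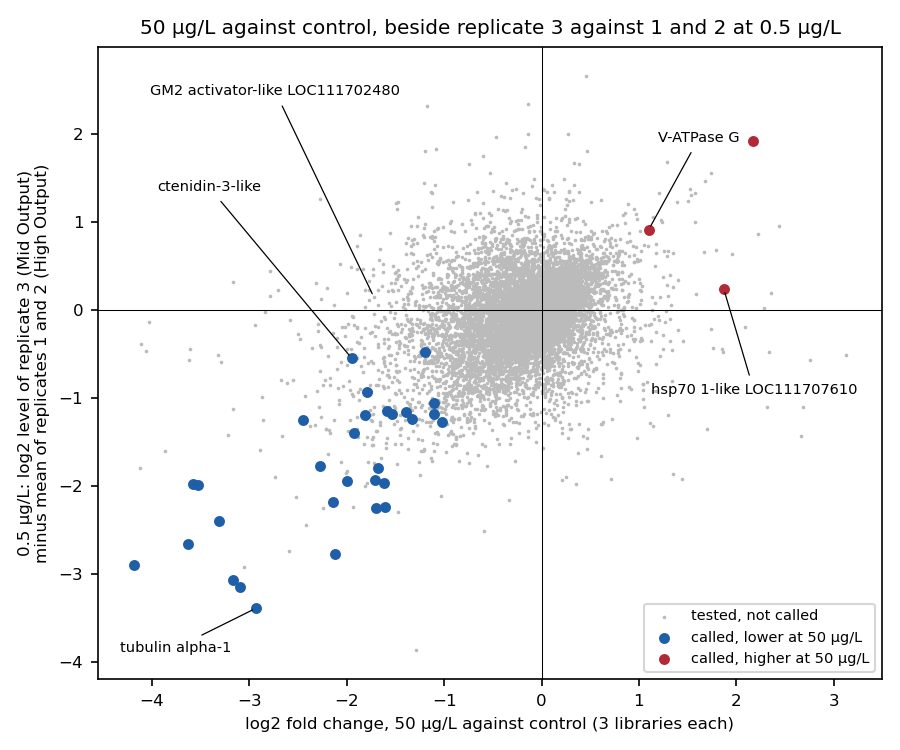
Each point is 1 tested gene, with the log2 fold change of 50 µg/L against control on the x axis and, on the y axis, the log2 level of 0.5 µg/L replicate 3 (Mid Output) minus the mean of replicates 1 and 2 (High Output). Both axes compare Mid with High Output libraries and share no library. All 33 called genes fall in the lower left or upper right quadrant, and hsp70 LOC111707610 is the called gene closest to 0 on the y axis (0.24).

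Within the Mid Output flow cell the dose can be compared in 4 libraries, 3 at 50 µg/L and the lone replicate 3 at 0.5 µg/L, which has to be assumed to vary as the others do. In that comparison edgeR's quasi-likelihood test called 0 of 14885 genes, with 215 at an unadjusted p under 0.05, and DESeq2 called 0, with 156. With the flow cell as a covariate over the 9 female libraries, both tools called 0 genes, with 244 (edgeR) and 259 (DESeq2) at an unadjusted p under 0.05. In that fit, too, replicate 3 is the only library that separates flow cell from dose. A p that misses the threshold does not show that the doses had the same levels.

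**Figure D3:**
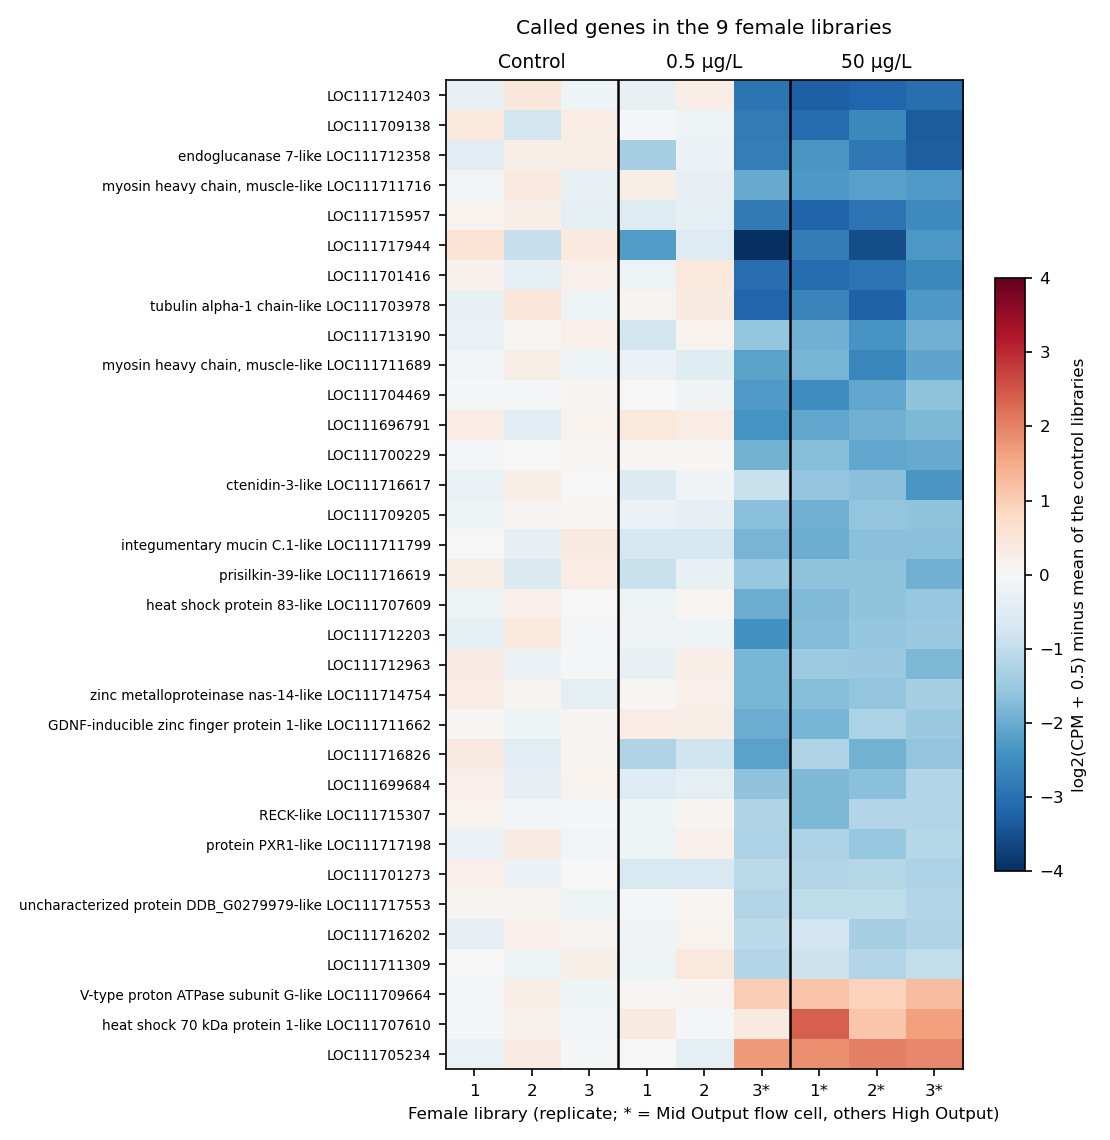
Log2(CPM + 0.5) of the 33 called genes (rows, ordered by fold change) in the 9 female libraries (columns), relative to the mean of the controls. Blue is lower and red higher, and an asterisk marks Mid Output libraries. The column of 0.5 µg/L replicate 3 has the colours of the 50 µg/L columns in nearly all rows, with hsp70 LOC111707610 and ctenidin-3-like LOC111716617 as exceptions.

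The 2 genes called under every omission show the pattern in its plainest form. LOC111700229 had 25.7, 26.4 and 28.2 CPM in the controls and 7.87, 5.96 and 6.31 CPM at 50 µg/L, and fell 3.99-fold (log2 fold change -2.0, SE 0.19, quasi-likelihood adjusted p = 0.0066). The low-dose group had 27.7 and 27.4 CPM in replicates 1 and 2 and 6.85 CPM in replicate 3. The 5 High Output libraries were thus high and the 4 Mid Output libraries low, with no overlap. LOC111701416 had 24.5, 16.7 and 24.9 CPM in the controls and 2.15, 2.36 and 3.22 CPM at 50 µg/L (log2 fold change -3.10, SE 0.28, adjusted p = 0.0066). Its levels at 0.5 µg/L were 18.6, 29.1 and 2.18 CPM. Again replicate 3 alone was low in its group.

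LOC111701273, the single gene called in the fit of 9 libraries, differed from this. It is an uncharacterised gene of high expression, with 1630, 1200 and 1420 CPM in the controls and 626, 636 and 596 CPM at 50 µg/L (log2 fold change -1.2, SE 0.13, adjusted p = 0.0077 by the quasi-likelihood test). The low-dose levels were 924, 922 and 662 CPM. All 3 libraries at 0.5 µg/L lay between the controls and the exposed females, those of the High Output flow cell included. LOC111712403 had the widest fall of the 33, from 6.29, 10.8 and 6.85 CPM in the controls to 0.358, 0.411 and 0.515 CPM, with 6.18, 9.52 and 0.595 CPM at 0.5 µg/L. Behind the exposed levels are 3, 4 and 4 counts, and the ratio of summed counts was 18.2 with a 95% exact interval of 10.1 to 36.8 for counting error only.

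The early genes of the ecdysone cascade did not pass the test. Names were found for 4 of them, all from the study's list for males. They comprise 3 genes annotated as broad-complex core protein and an ecdysone-induced protein 74EF-like gene. The quasi-likelihood test, DESeq2 and the likelihood ratio test each called 0 of the 4, with 1 at an unadjusted p under 0.05. Over all genes, the quasi-likelihood test called 0.227%, DESeq2 0.838% lower and 0.107% higher, and the likelihood ratio test 0.93% and 0.0758%. In the quasi-likelihood test 1486 of 14520 had an unadjusted p under 0.05. A count of 0 in 4 genes is near these shares and is not read as a result about them. The same shares stand beside the lists below. The median log2 fold change of the 4 early genes was 0.09, beside -0.01 over all genes tested, and in none of the 4 did the groups stand apart. Broad-complex LOC111709681 had 389, 575 and 430 CPM in the controls and 663, 524 and 653 CPM at 50 µg/L (log2 fold change 0.40, SE 0.15, adjusted p = 0.4, quasi-likelihood test). Eip74EF-like LOC111704069 had 9.63, 4.19 and 10.4 CPM against 6.55, 8.73 and 4.25 CPM (log2 fold change -0.31, SE 0.40, adjusted p = 0.82). In both genes the groups overlapped. No gene named as the ecdysone receptor or its partner was among the names used here.

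Methyl farnesoate epoxidase-like LOC111717477, an enzyme that in insects makes juvenile hormone from methyl farnesoate, is on the study's lists of both sexes at 50 µg/L. It had 2.06, 1.86 and 1.30 CPM in the controls and 4.89, 5.75 and 4.25 CPM at 50 µg/L, from 80 and 130 counts in all. The exposed libraries were all above the controls, yet the difference did not pass the test (log2 fold change 1.5, SE 0.37, adjusted p = 0.16, quasi-likelihood test). DESeq2 gave an adjusted p of 0.023. At 0.5 µg/L, replicates 1 and 2 had 1.14 and 0.827 CPM and replicate 3 had 2.98 CPM.

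Cuticle proteins, which with chitin build the exoskeleton, were called in no case by the quasi-likelihood test. Of 6 named cuticle proteins it called 0 (3 at an unadjusted p under 0.05), whereas DESeq2 and the likelihood ratio test each called 2, LOC111698563 and LOC111711095, both lower. In 5 the log2 fold change was negative, and in 3 the exposed libraries were all below the controls, as in 9.04% of all genes tested. The median log2 fold change was -1.34, and ran from -2.11 to -1.01 with a library left out. It was -1.18 over the 4 that are not on the study's list for these females. These 4 came from its list for females at 0.5 µg/L, which was made with the same controls, so the direction of all 6 is tied to how they were chosen and is given as a description. Cuticle protein 7-like LOC111698563 had 112, 81.0 and 212 CPM in the controls and 12.3, 11.1 and 25.9 CPM at 50 µg/L. Every exposed library was below every control, but the controls spread widely (log2 fold change -3.06, SE 0.50, adjusted p = 0.11 by the quasi-likelihood test and 2.3e-05 by DESeq2).

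In this gene the females at 0.5 µg/L were low on both flow cells, at 29.8 and 32.4 CPM in replicates 1 and 2 and 3.67 CPM in replicate 3. Replicate 3 was below the exposed libraries, and within the Mid Output flow cell the log2 difference between 50 and 0.5 µg/L was 2.16 (unadjusted p = 0.00442, quasi-likelihood adjusted p = 1). With the flow cell as a covariate the log2 fold change against the controls was 0.04. In 3 of the 6 cuticle genes all 6 TEB libraries were below all 3 controls, a pattern of 1.87% of the 14520 genes tested, and nothing is read from that count because the names were chosen for a change against these controls. It was also the pattern of 6 of the 33 called genes, LOC111701273 among them. Cuticle protein 16.5-like LOC111711095 had 83.7, 94.1 and 82.3 CPM in the controls, 23.4, 42.8 and 11.1 CPM at 0.5 µg/L and 59.1, 23.3 and 25.7 CPM at 50 µg/L (log2 fold change -1.27, SE 0.32, adjusted p = 0.21 by the quasi-likelihood test and 0.0023 by DESeq2), and its log2 fold change was 0.32 with the flow cell as a covariate. Cuticle protein 16.5-like LOC111704119 had 9.35, 7.13 and 7.61 CPM, then 2.16, 2.34 and 1.59 CPM, then 1.91, 1.95 and 5.28 CPM (log2 fold change -1.41, SE 0.42, adjusted p = 0.26). These are the other two of the 3 genes. Another gene of that name, LOC111708925, had 13.7, 10.9 and 5.62 CPM in the controls and 32.3, 1.54 and 2.96 CPM at 50 µg/L. Its exposed replicate 1 was the highest and the other two the lowest of the 6, and the sign of its log2 fold change of 0.27 turned to -2.17 without that library.

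Proteins rich in glycine, proline or serine repeats, which carry names of shell, silk, plaque, collagen or cell wall proteins of other organisms, were tested in 25 genes, of which 10 stand on the study's own list for these females. The quasi-likelihood test called 2 lower and 0 higher, DESeq2 called 10 and the likelihood ratio test 8. In 23 the log2 fold change was negative, and in 11 every exposed library was below the controls, beside 9.04% of all genes. The median log2 fold change was -0.70, and -0.46 over the 15 that the study does not list for these females. Some of those 15 came from its list for females at 0.5 µg/L, which was made with the same controls. The counts and medians of this list are tied to how the names were chosen and are given as a description. Prisilkin-39-like LOC111716619, named after a pearl oyster shell protein, fell from 87.9, 49.2 and 90.9 CPM to 23.5, 23.7 and 18.9 CPM (log2 fold change -1.79, SE 0.23, adjusted p = 0.016, quasi-likelihood test). Low-dose females had 39.1 and 60 CPM in replicates 1 and 2 and 25.2 CPM in replicate 3. The exposed libraries and replicate 3 were below all others.

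Ctenidin-3-like LOC111716617, named after a glycine-rich peptide of spider blood cells, had another pattern. It fell from 12.2, 17.9 and 14.7 CPM to 4.65, 4.31 and 2.57 CPM (log2 fold change -1.95, SE 0.29, adjusted p = 0.025). Replicate 3 at 0.5 µg/L had 7.74 CPM, beside 9.97 and 13.4 CPM in its sisters. It thus lay above all 3 exposed libraries and, with hsp70 below, is 1 of the 2 called genes in which replicate 3 was nearer to the controls. Within the Mid Output flow cell the log2 difference between 50 and 0.5 µg/L was -1.0 (quasi-likelihood adjusted p = 1, unadjusted p = 0.0513).

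Other members were lower in all exposed libraries and were called by DESeq2 and the likelihood ratio test but not by the quasi-likelihood test. N66 matrix protein-like LOC111707599 had 22.3, 18.2 and 20.2 CPM against 5.84, 9.04 and 9.26 CPM (log2 fold change -1.33, SE 0.23, quasi-likelihood adjusted p = 0.057, DESeq2 6.5e-05), with 17.1, 16.8 and 8.14 CPM at 0.5 µg/L. Here replicate 3 again kept to the exposed side. Shematrin-like protein 1 LOC111704039 had 90.3, 82.4 and 53.9 CPM against 30.3, 11.4 and 29.0 CPM (log2 fold change -1.69, SE 0.36, quasi-likelihood adjusted p = 0.14, DESeq2 2.1e-05), with 23.7, 29.4 and 9.82 CPM at 0.5 µg/L. Extensin-2-like LOC111701961 had 2.84, 7.91 and 2.54 CPM against 1.43, 0.308 and 0.257 CPM (log2 fold change -2.71, SE 0.71, quasi-likelihood adjusted p = 0.19, DESeq2 0.019), with 0.901, 1.17 and 1.29 CPM at 0.5 µg/L. In these 2 genes all TEB libraries were below all controls on both flow cells. The same held in the N66 gene, by a narrow margin for its replicates 1 and 2 at 0.5 µg/L. It was the pattern of 7 of the 25 in all, beside 1.87% of all genes. Nothing is read from that count, because the 7 names came from the study's lists of genes changed in females against these controls. Behind the exposed levels of the extensin-2-like gene are 12, 3 and 2 counts, and its log2 fold change ran from -3.9 to -2 with a library left out. The only member with a positive log2 fold change above 1, a collagen alpha chain CG42342-like gene, had overlapping groups.

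Mucins are large glycosylated proteins of epithelial surfaces. Of 8 named, 1 was called, lower, by the quasi-likelihood test and 2 by DESeq2, and the median log2 fold change was -0.16. Integumentary mucin C.1-like LOC111711799 fell from 133, 107 and 171 CPM to 33.6, 41.8 and 41.9 CPM (log2 fold change -1.81, SE 0.18, adjusted p = 0.0066, quasi-likelihood test), and of the 6 omissions only that of exposed replicate 1 ended the call. Its levels at 0.5 µg/L were 83.3, 85.6 and 36.5 CPM. Replicates 1 and 2 lay below all controls and replicate 3 at the exposed level. A second gene of that name, LOC111712797, had overlapping groups (66.9, 75.7 and 53.8 CPM against 29.6, 28.7 and 58.5 CPM).

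Mucin-5AC-like LOC111697205 had 12.7, 3.88 and 10.8 CPM in the controls and 2.15, 2.98 and 2.19 CPM at 50 µg/L (log2 fold change -1.90, SE 0.45, quasi-likelihood adjusted p = 0.15, DESeq2 0.0072). At 0.5 µg/L it had 2.40, 2.76 and 2.18 CPM. All 6 TEB libraries were below all controls, with similar levels on both flow cells at 0.5 µg/L, and control replicate 2 was much the closest to them.

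**Figure D4:**
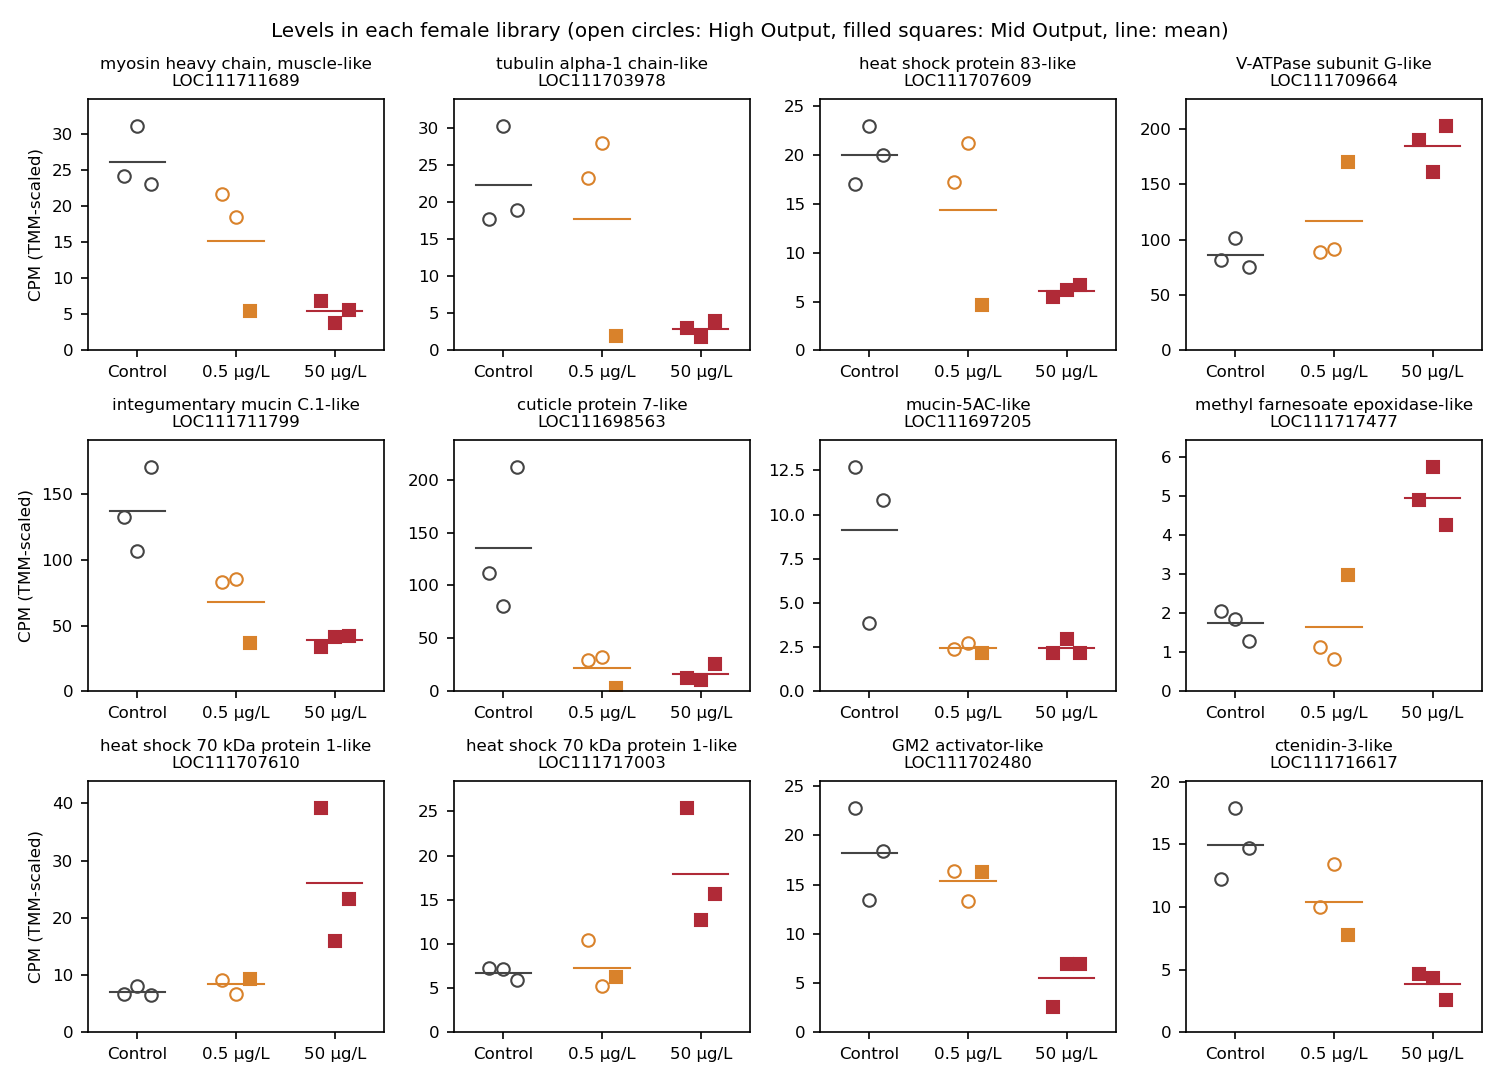
CPM (y axis, from 0) of 12 genes in the 3 control, 3 low-dose and 3 high-dose female libraries (x axis). Open circles are High Output and filled squares Mid Output libraries, and lines are group means. In the top row the orange square sits with the red squares, whereas in the hsp70 and GM2 activator-like panels it sits with the controls.

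Of the genes for muscle and cytoskeleton, 3 were called. Myosin heavy chain is the motor of muscle contraction, and 2 of the 3 genes so named fell. Muscle-like myosin heavy chain LOC111711689 fell from 24.1, 31.1 and 23.0 CPM to 6.79, 3.80 and 5.66 CPM (log2 fold change -2.27, SE 0.25, adjusted p = 0.008, quasi-likelihood test), and of the 6 omissions only that of exposed replicate 3 ended the call. It had 21.7 and 18.5 CPM in replicates 1 and 2 at 0.5 µg/L and 5.46 CPM in replicate 3, so that replicate 3 sat with the exposed libraries and its sisters just below the controls. The other gene, LOC111711716, fell from 2.89, 4.34 and 2.47 CPM to 0.238, 0.308 and 0.257 CPM (adjusted p = 0.025), with 3.84, 2.41 and 0.397 CPM at 0.5 µg/L. The exposed levels are 2, 3 and 2 counts, so the ratio of 11.7 has a 95% exact counting interval of 5.54 to 29.6.

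The remaining muscle myosin heavy chain, LOC111715464, had 41.1, 14.7 and 23.9 CPM in the controls and 19.7, 27.0 and 18.7 CPM at 50 µg/L, with overlapping groups (log2 fold change -0.29, SE 0.34, adjusted p = 0.8). Over the 14 tested genes whose names mention myosin or actin, some of which regulate actin or chromatin rather than build filaments, the median log2 fold change was -0.05. Of 3 other sarcomere proteins, 0 were called by any of the 3 tests (0 at an unadjusted p under 0.05), and their median log2 fold change was -0.03. All names in both lists came from the study's list for males. Only the 2 called myosins also stand on its list for these females. The lack of calls among the sarcomere proteins is thus tied to how the names were chosen. How reads that map to several genes were counted is not stated, so values of genes that share a name may not be independent.

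Tubulins build microtubules. Tubulin alpha-1 chain-like LOC111703978 fell from 17.7, 30.3 and 18.9 CPM to 2.98, 1.85 and 3.99 CPM (log2 fold change -2.93, SE 0.33, adjusted p = 0.0085, quasi-likelihood test). It had 23.2, 28.0 and 1.98 CPM at 0.5 µg/L, and the log2 difference of replicate 3 from its sisters, -3.39, was the most negative of the called genes. It stood alone among the 9 tubulins named here. The other 8 had log2 fold changes of 0.01 to 0.76, and 0 of them were called by any of the 3 tests, with 1 at an unadjusted p under 0.05. All 9 names came from the study's list for males, and only the called gene also stands on its list for these females. The lack of calls in the other 8 is thus tied to how the names were chosen. In tubulin alpha-3 chain-like LOC111709132 the exposed libraries (27.9, 25.0 and 27.7 CPM) were above the controls (24.7, 10.8 and 11.9 CPM), with a log2 fold change of 0.75, an SE of 0.29 and an adjusted p of 0.41.

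Heat shock proteins are chaperones that many stresses induce. Of 15 tested, 1 was called higher and 1 lower, and 13 had a positive log2 fold change (median 0.22). In 6 of the 15 the exposed libraries were all above the controls, beside 7.39% of all genes tested. Of the 15 names, 3 stand on the study's list for these females and 14 on its list for males at 50 µg/L. Those males were also read on the Mid Output and their controls on the High Output flow cell. Nothing is read from the count of 6. Heat shock 70 kDa protein 1-like LOC111707610 rose from 6.73, 8.06 and 6.58 CPM to 39.2, 16.0 and 23.3 CPM (log2 fold change 1.87, SE 0.31, adjusted p = 0.037, quasi-likelihood test). At 0.5 µg/L it had 9.19, 6.62 and 9.33 CPM. Replicate 3 was at the level of its sisters and of the controls, so that only the 50 µg/L libraries were high, with replicate 1 the highest.

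A second hsp70 gene, LOC111717003, had 7.23, 7.21 and 5.89 CPM in the controls and 25.4, 12.7 and 15.6 CPM at 50 µg/L. Its difference did not pass the quasi-likelihood test (log2 fold change 1.40, SE 0.28, adjusted p = 0.09) but passed DESeq2 (adjusted p = 0.00056). The levels at 0.5 µg/L were 10.4, 5.24 and 6.25 CPM. Here too replicate 3 was not raised, and the order of the 3 exposed libraries was that of the first gene. Within the Mid Output flow cell, the log2 differences between 50 and 0.5 µg/L were 1.49 and 1.52 for these 2 genes, with unadjusted p of 0.039 and 0.00386 and an adjusted p of 1 for both in the quasi-likelihood test.

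Further heat shock genes were not called by any of the 3 tests. Hsp70 LOC111717007 had 1.56, 2.64 and 2.88 CPM against 8.82, 4.31 and 5.53 CPM (log2 fold change 1.40, SE 0.40, quasi-likelihood adjusted p = 0.23), with 3.66, 2.90 and 4.27 CPM at 0.5 µg/L. In hsp70 LOC111711805 the groups overlapped narrowly, with 2.06, 2.02 and 2.88 CPM against 5.96, 2.46 and 5.53 CPM. The small heat shock protein beta-1-like LOC111708726 had 11.7, 11.2 and 16.2 CPM against 26.5, 16.4 and 32.4 CPM (log2 fold change 0.94, SE 0.26, adjusted p = 0.23), with 15.7, 19.0 and 13.7 CPM at 0.5 µg/L. In these 3 genes, as in the first 2, exposed replicate 2 was the lowest of its group.

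Heat shock protein 83-like LOC111707609, of the hsp90 family that in insects also assists the ecdysone receptor, moved the other way, and its low-dose libraries split by flow cell. It fell from 17.0, 23.0 and 20.0 CPM to 5.48, 6.16 and 6.69 CPM (log2 fold change -1.71, SE 0.22, adjusted p = 0.016, quasi-likelihood test). Replicates 1 and 2 at 0.5 µg/L had 17.3 and 21.2 CPM and replicate 3 had 4.66 CPM, below every exposed library.

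The other higher genes were V-type proton ATPase subunit G-like LOC111709664 and LOC111705234. The V-ATPase pumps protons across membranes and drives ion uptake in crustacean epithelia. Subunit G rose from 81.5, 102 and 75.5 CPM to 190, 161 and 203 CPM (log2 fold change 1.10, SE 0.14, adjusted p = 0.015, quasi-likelihood test). Replicate 3 at 0.5 µg/L had 170 CPM, within the exposed range, and its sisters had 89.3 and 91.6 CPM, within the control range. Uncharacterised LOC111705234 rose from 1.5, 2.48 and 1.78 CPM to 8.10, 9.24 and 8.49 CPM (adjusted p = 0.024), with 1.86, 1.31 and 7.34 CPM at 0.5 µg/L. In both genes the 4 Mid Output libraries were above all 5 High Output libraries.

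A peptidase and a cellulase were among the lower genes. Of 10 tested peptidases, 1 was called lower and 0 higher by the quasi-likelihood test, and DESeq2 and the likelihood ratio test called 3 each. In 8 the log2 fold change was negative, and the median was -0.76, or -0.49 over the 7 not listed by the study for these females. All 10 names came from the study's lists of changed genes. The counts and medians are thus tied to how the names were chosen and are given as a description. Zinc metalloproteinase nas-14-like LOC111714754, of the astacin family, fell from 30, 26.2 and 18.4 CPM to 7.15, 7.80 and 9.39 CPM (log2 fold change -1.62, SE 0.23, adjusted p = 0.022, quasi-likelihood test). Its levels at 0.5 µg/L were 25.3, 28.1 and 6.45 CPM. High choriolytic enzyme 1-like LOC111715359, named after another astacin, which in fish softens the egg envelope at hatching, had 37.6, 47.8 and 32.6 CPM against 15.1, 14.4 and 23.5 CPM (adjusted p = 0.078, DESeq2 0.00051), with 35.0, 43.1 and 15.7 CPM at 0.5 µg/L. In both astacins replicate 3 alone of its group was low.

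Trypsin-1-like LOC111716204 had 31.1, 8.84 and 24.8 CPM in the controls and 9.53, 6.47 and 5.92 CPM at 50 µg/L, with 11.6, 13.2 and 8.53 CPM at 0.5 µg/L. Control replicate 2 lay inside the exposed range, and the gene was not called by the quasi-likelihood test (log2 fold change -1.57, SE 0.42, adjusted p = 0.21), though by DESeq2 (adjusted p = 0.011). Endoglucanase 7-like LOC111712358, a cellulase, fell from 4.90, 8.14 and 8.09 CPM to 0.953, 0.513 and 0.257 CPM (adjusted p = 0.019). The exposed libraries held 8, 5 and 2 counts, and the ratio of summed counts was 11.8 (95% exact counting interval 7.04 to 21.3). At 0.5 µg/L it had 2.46, 5.79 and 0.595 CPM. The copepods were fed algae through the exposure.

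Genes of glycosphingolipid breakdown and of glycine metabolism were not called by the quasi-likelihood test, and in 2 of the 5 described here replicate 3 at 0.5 µg/L was nearer to the controls. The GM2 activator presents gangliosides to the lysosomal enzyme that degrades them. GM2 activator-like LOC111702480 had 22.8, 13.4 and 18.4 CPM in the controls, 16.4, 13.3 and 16.3 CPM at 0.5 µg/L and 2.62, 6.98 and 6.95 CPM at 50 µg/L. Only the 50 µg/L libraries were low, and replicate 3 at 0.5 µg/L, from their flow cell, was not (log2 fold change -1.72, SE 0.36, adjusted p = 0.11 by the quasi-likelihood test and 0.00048 by DESeq2). Within the Mid Output flow cell the log2 difference from 0.5 µg/L was -1.55 (unadjusted p = 0.00697, adjusted p = 1). A second gene of this name, LOC111699882, had 58.1, 53.7 and 66.3 CPM in the controls, 20.5, 22.1 and 40.2 CPM at 0.5 µg/L and 15.6, 40.7 and 36.9 CPM at 50 µg/L, below the controls in all 6 TEB libraries (log2 fold change -0.93, SE 0.30, adjusted p = 0.32).

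The 3 enzymes of glycine and one-carbon metabolism, all from the study's list for these females, were below the controls in every exposed library, as 9.04% of all genes were. The quasi-likelihood test called 0 of the 3 (all 3 had an unadjusted p under 0.05), DESeq2 called 3 and the likelihood ratio test 2. Glycine N-methyltransferase-like LOC111710249, which uses up S-adenosylmethionine, had 13.9, 8.06 and 15.2 CPM against 4.05, 5.24 and 5.79 CPM (log2 fold change -1.30, SE 0.31, quasi-likelihood adjusted p = 0.15, DESeq2 0.013). Betaine-homocysteine methyltransferase 1-like LOC111708867, which remakes methionine, had 95.8, 42.0 and 49.7 CPM against 36.1, 29.5 and 23.0 CPM (adjusted p = 0.26, DESeq2 0.017). Glycine dehydrogenase LOC111718164, of the glycine cleavage system, had 47.0, 26.8 and 33.7 CPM against 18.0, 15.4 and 18.7 CPM (adjusted p = 0.096, DESeq2 0.0023). Replicate 3 at 0.5 µg/L had 8.04, 35.8 and 24.2 CPM in these genes in this order, which is above all exposed libraries in the first and the last and inside their range in the second.

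Of the markers of yolk and germline, vasa-like LOC111702462 passed the adjusted p but not the fold. It had 300, 313 and 299 CPM in the controls and 207, 193 and 192 CPM at 50 µg/L, 1.54-fold lower (log2 fold change -0.63, SE 0.09, adjusted p = 0.022, quasi-likelihood test), with 332, 327 and 201 CPM at 0.5 µg/L. A second vasa-like gene, LOC111703234, had 502, 504 and 555 CPM against 388, 427 and 394 CPM (adjusted p = 0.2), with 557, 564 and 401 CPM at 0.5 µg/L. In both, the 4 Mid Output libraries were low. Vitellogenin-like LOC111704362 had overlapping groups, with 139, 64.1 and 91.5 CPM against 48.9, 74.0 and 98.3 CPM (log2 fold change -0.42, SE 0.33, adjusted p = 0.72). Another gene under the fold limit, WD repeat-containing protein 43-like LOC111697097, fell from 37.5, 39.2 and 39.6 CPM to 19.7, 20.6 and 20.3 CPM (adjusted p = 0.022), with 44.1, 46.4 and 23.1 CPM at 0.5 µg/L. It was 1 of 12 genes with an adjusted p of at most 0.05 and a change under 2-fold.

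Detoxification enzymes metabolise insecticides. Of 12 tested cytochromes P450, glutathione S-transferases, esterases and transporters, 0 were called by any of the 3 tests (2 at an unadjusted p under 0.05) and the median log2 fold change was 0.31. Over all genes tested the quasi-likelihood test called 0.227%, and all 12 names came from the study's list for males. In 2 of the 12, both glutathione S-transferases, the exposed libraries were above all controls, beside 7.39% of all genes. LOC111714366 had 164, 189 and 154 CPM against 207, 243 and 231 CPM (log2 fold change 0.43, SE 0.11, adjusted p = 0.19, quasi-likelihood test), with 176, 177 and 162 CPM at 0.5 µg/L. LOC111698532 had 161, 178 and 166 CPM against 236, 208 and 240 CPM (log2 fold change 0.43, SE 0.10, adjusted p = 0.12), with 159, 168 and 213 CPM at 0.5 µg/L. Replicate 3 was at the control level in the first and at the exposed level in the second.

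In several lists no gene was called, and over all genes tested the quasi-likelihood test called 0.227%. Counts of 0 in lists this short are near that share. Of 29 genes of DNA replication and the cell cycle, 0 were called by any of the 3 tests (1 at an unadjusted p under 0.05), 2 were higher without overlap, beside 7.39% of all genes, and the median log2 fold change was 0.07, with a range of -0.82 to 0.27. Of 14 genes of transmission by acetylcholine, glutamate and GABA, 0 were called by any of the 3 tests (0 at an unadjusted p under 0.05). Their median was -0.13, with a range of -0.86 to 0.84. Phenoloxidase, hemocyanin and related immune genes had a median of 0.04 over 5, and genes of DNA methylation -0.07 over 3. Names in these lists came from the study's list for males, and 0 of them stood on its list for these females. The lack of calls is thus tied to how the names were chosen. The plot of list members shows the spread of each list it holds.

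**Figure D5:**
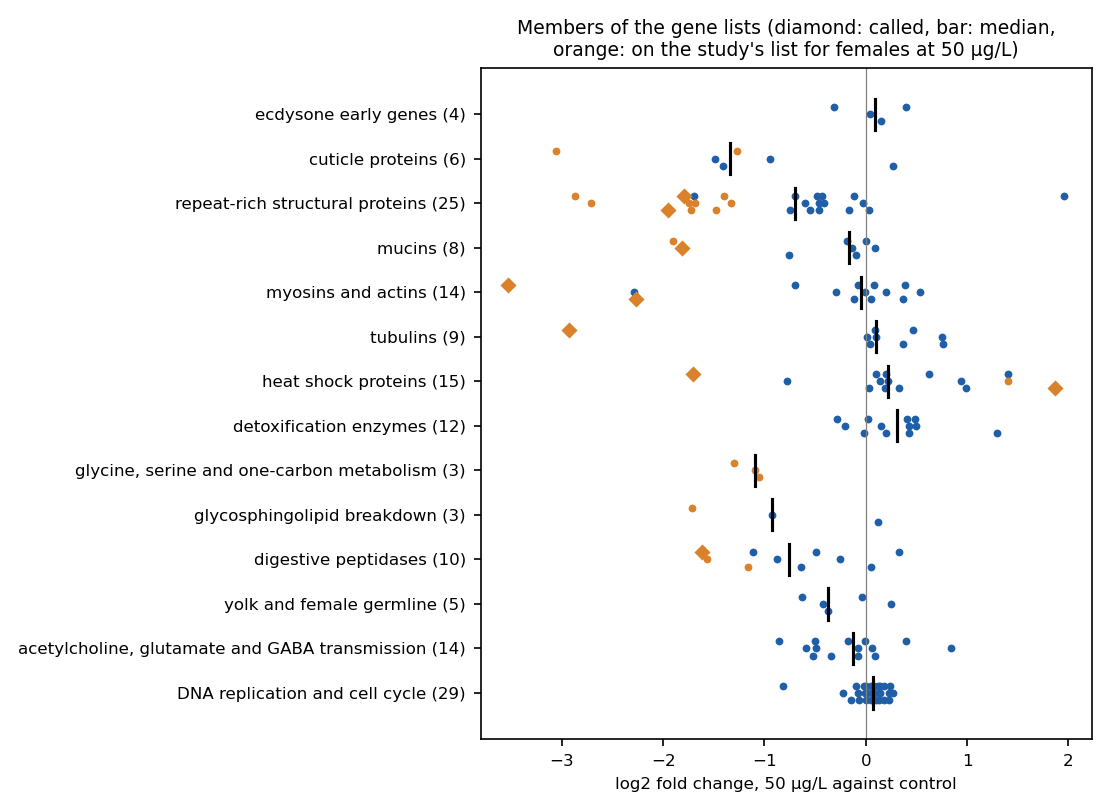
Log2 fold change of 50 µg/L against control (x axis) for each tested member of 14 gene lists (y axis, number tested in brackets). Diamonds are called genes, black bars medians, and orange members stand on the study's list for these females. Cuticle proteins have a median of -1.34 and genes of DNA replication and the cell cycle a median of 0.07.

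In the last 3 called genes with a descriptive name, replicate 3 sat with the exposed females. The inhibitor of matrix metalloproteinases RECK-like LOC111715307 fell from 38.6, 32.1 and 33.7 CPM to 9.65, 15.2 and 15.1 CPM, with 30.5, 37.6 and 14.9 CPM at 0.5 µg/L. PXR1-like LOC111717198, named after a yeast protein of ribosome assembly, fell from 45.2, 67.0 and 49.7 CPM to 22.2, 18.2 and 23.9 CPM, with 45.7, 61.3 and 22.1 CPM at 0.5 µg/L. GDNF-inducible zinc finger protein 1-like LOC111711662, a transcription factor, fell from 16.2, 13.7 and 16.9 CPM to 3.93, 6.16 and 5.28 CPM, with 19.3, 18.3 and 3.57 CPM at 0.5 µg/L. Their quasi-likelihood adjusted p were 0.022, 0.018 and 0.031.

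The called genes not described so far have no name that tells a function, and all were lower, with log2 fold changes of -3.63 to -1.02. LOC111709138, with the largest change among them, fell from 13.4, 5.66 and 12.2 CPM to 0.715, 1.23 and 0.515 CPM (adjusted p = 0.016, quasi-likelihood test), with 9.55, 8.41 and 0.992 CPM at 0.5 µg/L. LOC111711309, with the smallest, fell 2.03-fold from 164, 142 and 194 CPM to 90.9, 73.3 and 82.9 CPM, with 143, 221 and 73.4 CPM at 0.5 µg/L. In both, replicate 3 alone of its group was low. In 3 others all 6 TEB libraries were below all controls. LOC111699684 fell from 477, 332 and 461 CPM to 119, 131 and 187 CPM, with 291, 329 and 136 CPM at 0.5 µg/L. LOC111716826 fell from 251, 143 and 214 CPM to 85.2, 52.7 and 65.5 CPM, with 85.5, 113 and 43.9 CPM. LOC111709205 fell from 6.79, 8.53 and 8.16 CPM to 1.67, 2.26 and 2.19 CPM, with 6.54, 6.07 and 2.08 CPM. In LOC111716826 replicates 1 and 2 at 0.5 µg/L were nearer to the exposed libraries, and in LOC111699684 and LOC111709205 nearer to the controls. LOC111717944 fell from 30.9, 10.8 and 27.6 CPM to 2.62, 1.34 and 3.86 CPM, with 4.08, 14.7 and 0.496 CPM, so that replicate 1 at 0.5 µg/L was below the controls and replicate 2 among them.

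On the higher side, 3 genes without a name passed the adjusted p with a rise under 2-fold. LOC111706139, LOC111700753 and LOC111697905 rose 1.7-fold, 1.62-fold and 1.7-fold, with quasi-likelihood adjusted p of 0.022, 0.022 and 0.037. Genes with a larger rise and no overlap, other than the 3 called, did not pass it. Uncharacterised LOC111717258 had 0.89, 0.853 and 0.48 CPM in the controls and 6.44, 2.77 and 3.09 CPM at 50 µg/L (log2 fold change 2.44, adjusted p = 0.098, quasi-likelihood test), with 0.84, 0.827 and 2.08 CPM at 0.5 µg/L. LOC111715087 had 5.12, 6.67 and 3.70 CPM against 11.9, 9.76 and 14.2 CPM (adjusted p = 0.16), with 5.16, 6.07 and 14.8 CPM. In both, replicate 3 was above its sisters. LOC111710981 had 1.22, 1.47 and 1.30 CPM against 3.69, 4.21 and 4.89 CPM (adjusted p = 0.12), with 2.52, 2.14 and 3.97 CPM. Here all 6 TEB libraries were above all controls. These 3 genes were called by DESeq2 (adjusted p = 0.0025, 0.0095 and 0.014 in this order). The 5.8S ribosomal RNA LOC111718184 had 4.62, 5.35 and 6.79 CPM against 33.8, 6.47 and 13.5 CPM (adjusted p = 0.31, DESeq2 0.019), with 12.7 CPM in replicate 3 and 5.34 and 3.45 CPM in its sisters. The groups overlapped, and exposed replicate 1 was the highest of the 9 female libraries, as it was in hsp70 LOC111707610 and LOC111717003.

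A few single genes complete the lists. Endochitinase A-like LOC111697179, which degrades chitin, had 194, 203 and 196 CPM in the controls and 212, 213 and 234 CPM at 50 µg/L, above all controls but with a log2 fold change of 0.15 (adjusted p = 0.62, quasi-likelihood test). Zonadhesin-like LOC111706122, named after a mammalian sperm protein that binds the egg coat, had 6.68, 3.95 and 5.76 CPM against 2.62, 1.44 and 1.29 CPM (adjusted p = 0.18, DESeq2 0.037), with 1.92, 2.14 and 1.88 CPM at 0.5 µg/L. All TEB libraries were below all controls in this gene.

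The split by replicate 3 was last made over a wider set, the 162 genes called by any of the 3 tests. In 143 of them replicate 3 at 0.5 µg/L was nearer to the exposed females, beside 9052 of all 14520 genes tested, and in 19 it was nearer to the controls. Those 19 hold both hsp70 genes, GM2 activator-like LOC111702480, glycine N-methyltransferase-like LOC111710249, ctenidin-3-like LOC111716617 and uncharacterised LOC111712772. The last had 2.28, 2.09 and 2.74 CPM in the controls, 5.52, 3.38 and 1.39 CPM at 0.5 µg/L and 7.15, 5.34 and 10.8 CPM at 50 µg/L (log2 fold change 1.70, SE 0.36, adjusted p = 0.11 by the quasi-likelihood test and 0.0019 by DESeq2). Its replicate 3 was the lowest of all 9 female libraries. The 19 genes were singled out after their values were seen, with 1 library to go by, and how flow cell and dose each contributed to the other 143 cannot be told apart.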

How the data were processed

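Whole adult copepods were sequenced from mRNA libraries in single-end reads. The authors trimmed reads with Trimmomatic, aligned them with STAR to Eaff_2.0, counted reads per gene with featureCounts and deposited the raw counts. Versions, strand setting and treatment of multi-mapping reads are not given in the sources used here. Each column matched 1 library, and 0 columns were left over. Gene names (1434) came from the study's lists of changed genes.

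The test of the 6 libraries was run with edgeR 4.0.16 under R 4.3.3 (filterByExpr, TMM, robust quasi-likelihood test, Benjamini-Hochberg adjustment). The third female group stayed out because it was read on both flow cells. Genes were called at an adjusted p of at most 0.05 and a log2 fold change of at least 1 in size. DESeq2 1.42.0 was an alternative, beside other scalings, no filter, 9 libraries, a replicate block, a flow cell covariate and leaving out each library. CPM on a log2 scale had 0.5 added. The fit was tested on counts simulated from these libraries, in which 200 genes had known changes.

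The members and lists were chosen with earlier results of these data known. The rule for named genes was every called gene, the 10 lower and 10 higher genes of smallest p without overlap and at least 2-fold, the genes the study names for these females and the 2 leading members of each list. Some are given only by their range, and other members were added after their values were seen. Lists are described by counts and medians only.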

Additional observations from a re-analysis of the deposited data

How the results depend on the processing

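Of 14520 genes, 33 were called (30 lower, 3 higher). Without the filter 51 were called (46 lower, 5 higher), with the likelihood ratio test 146 (135 and 11), with DESeq2 132 (117 and 15) and with both of the latter 114 (103 and 11). No minimum fold gave 45 (39 and 6). The fit of 9 female libraries called 1, lower, and the flow cell covariate 0 (244 at an unadjusted p under 0.05). RLE factors gave 32, upper-quartile factors 34 and thinned libraries 34. The median log2 fold change of all genes was -0.009, and ran from -0.079 (upper-quartile factors) to 0.023 (flow cell covariate) over the other settings. Leaving out a library gave 4 to 119 called, 4 to 108 lower and 0 to 11 higher, with the fewest without exposed replicate 1 and the most without control replicate 2.

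Deviations of replicates with the same number had correlations of 0.08, -0.25 and -0.02, beside -0.24 to 0.22 for different numbers. These are too few to tell whether the numbers pair anything, and the main fit used no pairing. With a replicate block 5 genes were called, 5 lower and 0 higher, and 3 of them were among the 33. The log2 fold change of LOC111708925 became -0.70 in that fit and ran from -2.17 (without exposed replicate 1) to 0.82 (without exposed replicate 2) with a library left out. That of LOC111715464 ran from -0.57 to 0.17, the latter without control replicate 1.

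With the flow cell covariate the sign turned in 18 of the 68 genes followed. The log2 fold change became 0.05 in LOC111697097, 0.04 in LOC111698563, 0.03 in LOC111700229, 0.36 in LOC111701416, 0.10 in LOC111702462, 0.13 in LOC111703234, 0.76 in LOC111703978, 1.04 in LOC111704069, -0.02 in LOC111705234, 0.35 in LOC111707609, 0.32 in LOC111711095, 0.30 in LOC111711309, 0.80 in LOC111711662, 0.45 in LOC111714754, -0.17 in LOC111715087, 0.17 in LOC111715359, -0.06 in LOC111717477 and 1.05 in LOC111717944. This covariate rests on 0.5 µg/L replicate 3 alone. In the other genes followed the sign was kept. Examples are hsp70 LOC111707610 (1.65), GM2 activator-like LOC111702480 (-1.83), ctenidin-3-like LOC111716617 (-1.35) and mucin-5AC-like LOC111697205 (-1.65). The hsp70 and GM2 activator-like genes had an adjusted p of 1 in edgeR's quasi-likelihood test. The causes were not tested. A floor of 3 counts is 0.167 to 0.386 CPM in these libraries, and levels at or under it rest on 3 counts or fewer.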
